A study of Arabidopsis thaliana with 4 samples.

Results

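The stretch at the start of chromosome 1 from locus AT1G01080 to locus AT1G11280 was examined in rosette leaves of Arabidopsis thaliana. Its genes were taken from probe sets that the array's gene table assigns to a single gene, with a mean signal of at least 150 over the 4 arrays and the brightest probe set kept for each gene. This gave 277 genes of the 6307 named nuclear genes that reached the same signal, out of 477 genes of the stretch named on the array. The genes were thus chosen by their signal, and the ends of the stretch were selected on the AAF-OX minus Col-0 differences of the replicate 1 arrays. Earlier results of these same arrays were also known. Every genotype difference below therefore describes the genes that were chosen and carries no test. The study hybridised leaf RNA of 3-week-old plants, grown under 16 h of light and 8 h of dark, to Affymetrix arrays. Wild-type Col-0 was set against AAF-OX, a line in the Col-0 background that overexpresses AAF, with 2 arrays per genotype. The promoter that drives AAF and the number of transgenic lines are not given in the sources used here. The arrays were run as 2 independent sets, and each set was taken to hold the Col-0 and the AAF-OX array of the same replicate number.

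Locus numbers of Arabidopsis rise along each chromosome, so genes with adjacent numbers lie side by side. Neighbouring plant genes mostly have unrelated functions and are transcribed from their own promoters, apart from runs of duplicated genes. The stretch accordingly holds ribosomal proteins, photosystem assembly factors, histones, proteases, kinases and enzymes of many pathways. AAF itself, taken here as AT1G66330 from knowledge of the study, lies on the same chromosome outside the stretch. Its signal was 759.9 in Col-0 and 7442 in AAF-OX in set 1, and 1337 and 7706 in set 2, as the labels have it. Leaf markers were bright on all 4 arrays, with RCA, the activase of Rubisco, between 23017 and 28152 and LHCB4.1, a light-harvesting protein, between 22834 and 31590. Both were lower in AAF-OX within both sets. Of 21 markers listed for leaf, root, flower, seed and pollen, 5 were named on the array. The root-type markers PYK10 and NAI2 were also lower within both sets, at 1075 and 629 then 1974 and 1527 for PYK10, and at 339.8 and 210.5 then 312.0 and 191.6 for NAI2. The part of these markers in the differences below was not tested. AT4G32130, listed for pollen, lay between 209.9 and 374.7. In whole leaves a change in the number of cells of a type and a change in RNA per cell cannot be told apart.

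The genes of the stretch were higher in AAF-OX by a shared, moderate step. The median signal over the 277 genes was 495.2 in Col-0 and 656.8 in AAF-OX in set 1, and 435.9 and 670.8 in set 2. Within sets, the median ratio of AAF-OX to Col-0 was 1.34 in set 1 (quartiles 1.19 and 1.47) and 1.52 in set 2 (quartiles 1.34 and 1.76). On the scale of log2(signal + 50), used for all log2 values here, the median difference was 0.39 in set 1 and 0.54 in set 2, and 0.46 over both. The 6030 other named genes at the same signal had medians of -0.02 and -0.03. In both sets, 251 of the 277 genes (90.6%) were higher in AAF-OX, where 22.0% of the other genes were. In 178 genes both AAF-OX arrays lay above both Col-0 arrays, against 5.75% of the other genes. Both AAF-OX arrays lay below both Col-0 arrays in 2 genes of the stretch, against 11.1% of the others. Since the stretch was chosen for this direction, nothing is read from these shares.

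**Figure D1:**
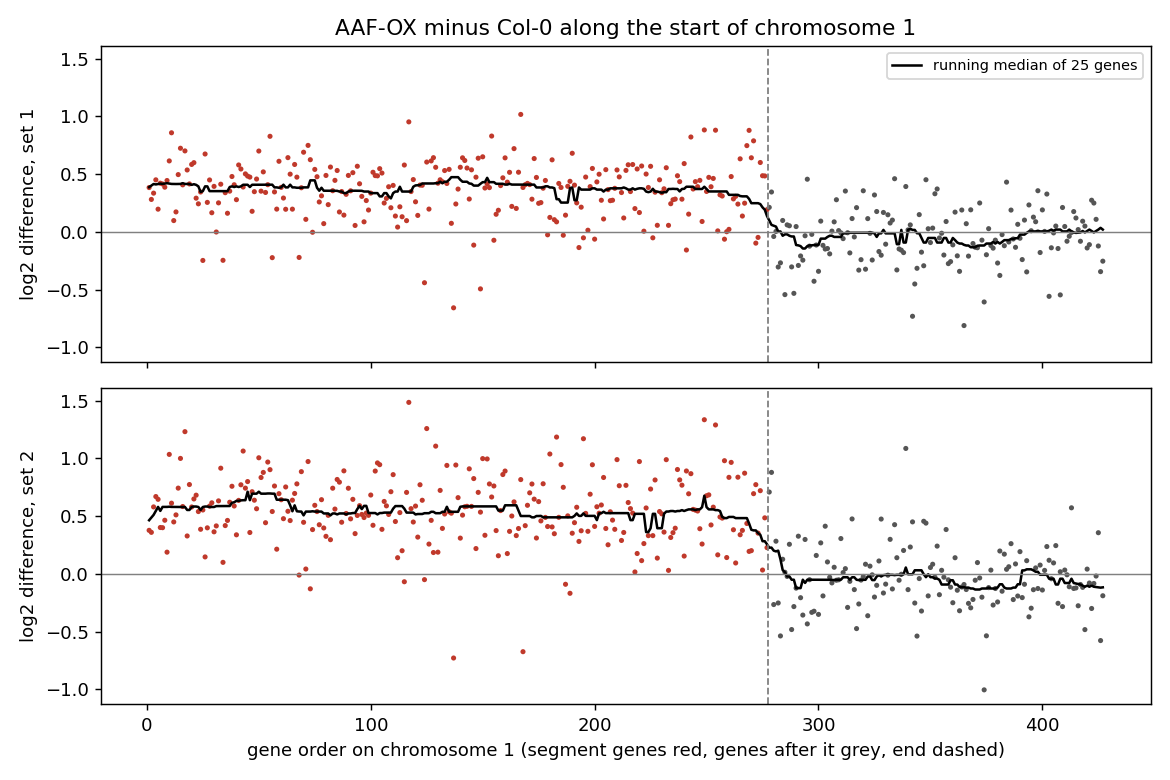
Log2 difference AAF-OX minus Col-0 of each named gene with a mean signal of at least 150, in gene order from the first gene of the stretch, for set 1 (top) and set 2 (bottom). Red points are the 277 genes of the stretch, grey points the genes that follow, and the black line is the running median of 25 genes, which lies near 0.39 and 0.54 up to the dashed end and near 0 after it.

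The step was alike along the stretch. In 11 consecutive runs of 25 genes the median ran from 0.25 to 0.47 in set 1 and from 0.48 to 0.64 in set 2, with no run near 0. The first run, AT1G01080 to AT1G01930, had 0.41 and 0.58, and the eleventh, ending at AT1G11210, had 0.32 and 0.48. The next 25 measured genes after the end had medians of -0.11 and -0.12. At the near end, AT1G01080, an RNA-binding protein with RRM motifs, went from 1164 to 1534 in set 1 and from 1208 to 1584 in set 2. NGA3, named on the array and lying before it, had a mean signal of 37.5, under the minimum. At the far end, the last members were AT1G11240 (0.48 and 0.49) and the receptor kinase gene AT1G11280, at 380.7 and 441.9 in set 1 and 526.3 and 624.7 in set 2 (0.19 and 0.23). The first genes beyond it were still higher in AAF-OX. AT1G11320 had 154.9 and 187.3, then 154.1 and 283.8 (0.21 and 0.71), and AT1G11330 had 790.5 and 1018, then 226.3 and 458.3 (0.35 and 0.88). AT1G11360, the next, was not (-0.04 and -0.27). At the signal minimum, the members just inside were LOV1 (0.75 and 0.44) and AT1G10610 (-0.06 and 0.98), and the genes just outside were AT1G09300 (0.56 and 0.74) and AT1G01420 (-0.21 and 0.43). LOV1, with Col-0 signals of 103.8 and 116.1, and AT1G10610, with 144.0 and 96.2, reached the minimum only through AAF-OX.

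Above the signal minimum the step was seen at every level, and under it the step faded to medians near 0 in the dimmest genes. The 277 genes were split into 3 groups of equal size by mean signal. In the lowest group (under 414.6), the median difference was 0.31 in set 1 and 0.47 in set 2, and 73 of 92 genes were higher in both sets. In the middle group it was 0.40 and 0.57, with 88 of 92, and in the highest group (753.7 and above) 0.41 and 0.59, with 90 of 93. Medians of the other named genes in the same ranges of signal lay between -0.03 and -0.02 in both sets. Among the 200 genes of the stretch under the minimum, those with a mean of 100 to 150 had medians of 0.05 and 0.41 (28 genes), those of 50 to 100 had 0.22 and 0.21 (59 genes), and those under 50 had 0.00 and 0.04 (113 genes). Adding 50 to the signal shrinks the difference of dim genes, and the median ratios without it were 1.06 and 1.50, 1.27 and 1.28, and 1.02 and 1.20 in the same order. A mean over both genotypes can carry a gene over the minimum through AAF-OX alone, and 13 members had a Col-0 mean under 150. For the other 264 the medians were 0.39 and 0.55, and 239 were higher in both sets. All 277 probe sets were of the type with a plain _at ending, and in 3 groups of equal size by gene length the median over both sets was 0.47, 0.46 and 0.45 from short to long.

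Individual genes scattered around the step about as widely as genes elsewhere scattered around 0. The SD of the differences was 0.24 in set 1 and 0.29 in set 2 for the stretch, and 0.26 and 0.27 for the other genes. The step was larger in set 2 for 211 of the 277 genes. Across the 277 genes the differences in the 2 sets correlated at r = 0.30 (Spearman's rho 0.22), a description over genes that share the same 4 arrays. A second probe set reached the minimum for 3 genes. For AT1G09660 it gave 0.21 and 0.59 beside 0.34 and 0.52, for AT1G10090 0.45 and 0.25 beside 0.15 and 0.69, and for AT1G01320 0.49 and -0.36 beside 0.41 and 0.40. The dimmer probe set of AT1G01320 thus differed from the brighter one in set 2 by more than the step itself.

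**Figure D2:**
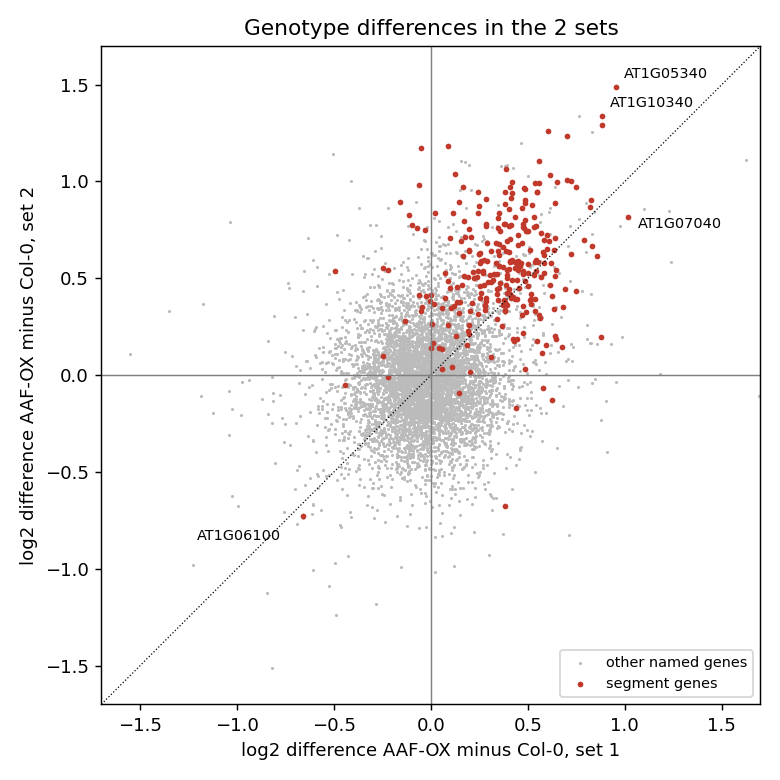
Log2 difference AAF-OX minus Col-0 in set 1 (horizontal) and set 2 (vertical), with the 277 genes of the stretch in red and 6030 other named genes in grey, of which 10 lie beyond the axes. The red cloud lies up and to the right of the grey one, centred at 0.39 and 0.54, and AT1G06100 is far from it at the lower left.

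Fitted gene by gene, the genotype difference depended on the design. limma on genotype alone called 0 of the 277 genes and 0.00% of all 13592 probe sets in either direction. At an unadjusted p under 0.05, 33 of the 277 passed in either direction, against 32 of the 6030 other named genes. Of all probe sets, the 277 included, 0.677% passed higher and 0.184% lower in AAF-OX. With the sets as a replicate block it called 60 (21.7%), all higher in AAF-OX. Of the 6030 other named genes it called 28 higher (0.464%) and 17 lower. Over all probe sets, the 277 included, the shares were 1.34% higher and 0.206% lower. The rule that chose the genes used this contrast, so the count of 60 is given as it stands. It fell to 0 when dim probe sets were kept or when the variance was fitted with no trend, and to 15 with a pseudocount of 1. By signal, the 60 were 7 genes of the lowest group, 15 of the middle and 38 of the highest.

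Roles could be given to 142 of the 277 genes, in 11 classes, and 128 of these were higher in AAF-OX in both sets. The genes of protein synthesis had a median of 0.44 over both sets, with 11 of 13 higher in both. AT1G01100, an acidic P1 protein of the cytosolic ribosome, went from 8753 to 10643 and from 9271 to 11912 (0.28 and 0.36). AT1G08360, of the ribosomal L10a family, went from 5656 to 6847 and from 4957 to 7523 (0.27 and 0.60). Both had separate groups. AT1G07070, of the large-subunit L35Ae family, had 0.41 and 0.42, and AT1G07210, of the ribosomal S18 family, 0.63 and 0.65. The members that did not share the direction in both sets were TRM82, a subunit of a tRNA methyltransferase (-0.22 and 0.54), and AT1G07840, of an rRNA-processing family (0.44 and -0.17).

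In the few pairs that could be compared, close relatives elsewhere in the genome did not carry the step. Of 21 listed pairs of a gene in the stretch and a relative outside it, 3 had both genes named on the array. AT4G00810, another acidic P1 protein, had 3068 and 3055 in set 1 and 3646 and 4016 in set 2 (-0.01 and 0.14), beside 0.28 and 0.36 for AT1G01100. PGY1, the relative of AT1G08360, had 3765 and 4002, then 5493 and 4793 (0.09 and -0.19). ACLA-1, a subunit of the ATP-citrate lyase that makes cytosolic acetyl-CoA, went from 3414 to 4171 and from 3860 to 5046 (0.29 and 0.38), while its relative ACLA-2 had 597.3 and 658.0, then 625.4 and 585.7 (0.13 and -0.09). ACLA-3, which lies in the stretch, went from 2176 to 3250 and from 1486 to 2507 (0.57 and 0.74). In each of the 3 pairs the gene of the stretch had the larger difference in both sets, a direction for which the stretch was chosen. No test was made, as the stretch was chosen for its differences.

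All 11 genes of RNA processing had both AAF-OX arrays above both Col-0 arrays (median 0.41), as did 64.3% of the stretch and 5.75% of the other genes. Since the stretch was chosen for this direction, nothing is read from the count. Among the 11, AT1G10320 had 153.5 and 166.5, then 132.0 and 167.7, and reached the signal minimum only through AAF-OX. The splicing factor gene PRP39 went from 934.4 to 1109 and from 877.6 to 1268, and MAC3A, of a spliceosome-associated complex, from 616.2 to 802.2 and from 604.2 to 860.4. AT1G02080, the scaffold of the CCR4-NOT complex that removes poly(A) tails, had 0.39 and 0.36. Chromatin and transcription genes had the lowest class median, 0.37, with 12 of 15 higher in both sets. The linker histone gene AT1G06760 went from 2807 to 3202 and from 2479 to 2770 (0.19 and 0.16), a smaller step than most. The histone H2B gene HTB1 had 607.8 and 677.0, then 1116 and 1045 (0.14 and -0.09). The demethylase gene PKDM7D had 0.38 and 0.39, and the nucleoporin gene AT1G10390, outside these classes, 0.46 and 0.58.

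All 9 plastid genes, of biogenesis, photosystems and pigments, were higher in AAF-OX in both sets, with a median of 0.47. LPA1, which helps to assemble photosystem II, went from 767.1 to 989.8 and from 750.3 to 1196 (0.35 and 0.64). LPA19, another assembly factor, had 0.26 and 0.59, and FZL, a dynamin-like GTPase that shapes thylakoids, 0.20 and 0.21. HEMA2, for the reductase that opens tetrapyrrole synthesis, went from 343.0 to 428.2 and from 238.5 to 441.5, and Z-ISO, an isomerase of carotenoid synthesis, from 556.0 to 889.4 and from 801.7 to 1027. CPNIFS, the plastid desulfurase that supplies sulfur for iron-sulfur clusters, had 0.54 and 0.39, and the Clp protease gene AT1G09130 0.35 and 0.57. PSB27, a repair factor of photosystem II and among the brightest genes, was nearly level at 12891 and 13897, then 16114 and 16592 (0.11 and 0.04).

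Genes of redox enzymes, oxygenases and glucosyltransferases had the highest class median, 0.59, and 14 of 15 were higher in both sets. The glutaredoxin gene AT1G06830 went from 676.4 to 954.6 and from 1370 to 2528. AT1G03020, of the same family, went from 57.1 to 124.1 and from 157.0 to 365.9, and reached the signal minimum only through AAF-OX. The tau-class glutathione transferase gene GSTU18 had 0.47 and 0.68. The metallothionein gene MT1C differed little in set 1 (1831 and 1947) and more in set 2 (2384 and 5486). Among 5 genes of 2-oxoglutarate oxygenases, AT1G06640 was lower in AAF-OX in set 1 (2982 and 2102) and higher in set 2 (1138 and 1672), while its neighbour AT1G06650 was higher in both (1006 and 1607, then 1299 and 2646). UGT71C5, which glucosylates abscisic acid, had 0.25 and 0.63. Among 13 proteases (median 0.52), 12 were higher in both sets. The aspartyl protease gene AT1G05840 went from 891.4 to 1337 and from 294.2 to 691.5, and the cathepsin B-like gene AT1G02305 from 3212 to 4497 and from 2159 to 3690.

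The remaining classes lay between these. Genes of protein folding and the ubiquitin system had a median of 0.42, kinases and phosphatases 0.45, membrane traffic and transport 0.44, lipid metabolism 0.41, and cell wall and glycosylation 0.38. All 16 traffic and transport genes were higher in both sets, such as the secretory coat gene AT1G05520 (482.7 and 654.6, then 385.2 and 627.2). So were 11 of 12 folding and ubiquitin genes, 12 of 13 kinases and phosphatases, 10 of 13 lipid genes and 10 of 12 cell wall genes. CRT1b, a calcium-binding chaperone of the endoplasmic reticulum, had 0.54 and 0.18, and FATB, the thioesterase that releases saturated fatty acids from plastids, 0.37 and 0.25. F2KP, which sets the level of the glycolytic regulator fructose 2,6-bisphosphate, had 0.41 and 0.70, and SRC2, a cold-responsive C2-domain gene, went from 3633 to 5460 and from 6231 to 9593 (0.58 and 0.62). Of 199 entries on 12 gene lists written from textbook roles, 26 were genes of the stretch, on 9 lists. Of these, 25 were higher in both sets, HTB1 being the exception. List medians ran from 0.27 for 4 genes of chromatin, DNA repair and RNA to 0.71 for 2 genes of carbon and amino acid metabolism. They were 0.41 for cytosolic translation (3 genes), 0.42 for photosynthesis (3), 0.51 for pigments (2), 0.46 for plastid import, proteolysis and gene expression (3), 0.59 for defence and stress (5), 0.33 for lipids and cuticle (3) and 0.52 for trafficking (1). The defence and stress median was the value of LOV1, with Col-0 signals of 103.8 and 116.1. LOV1 reached the signal minimum only through AAF-OX, so nothing is read from that median. The lists of light and hormone signalling, membrane transport and cell wall had no member that was named on the array and reached the signal minimum. In the annotation, 1101 protein-coding genes have a locus tag in the stretch, and 477 genes of the stretch were named on the array. Further entries of any list may therefore lie in the stretch without being counted.

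**Figure D3:**
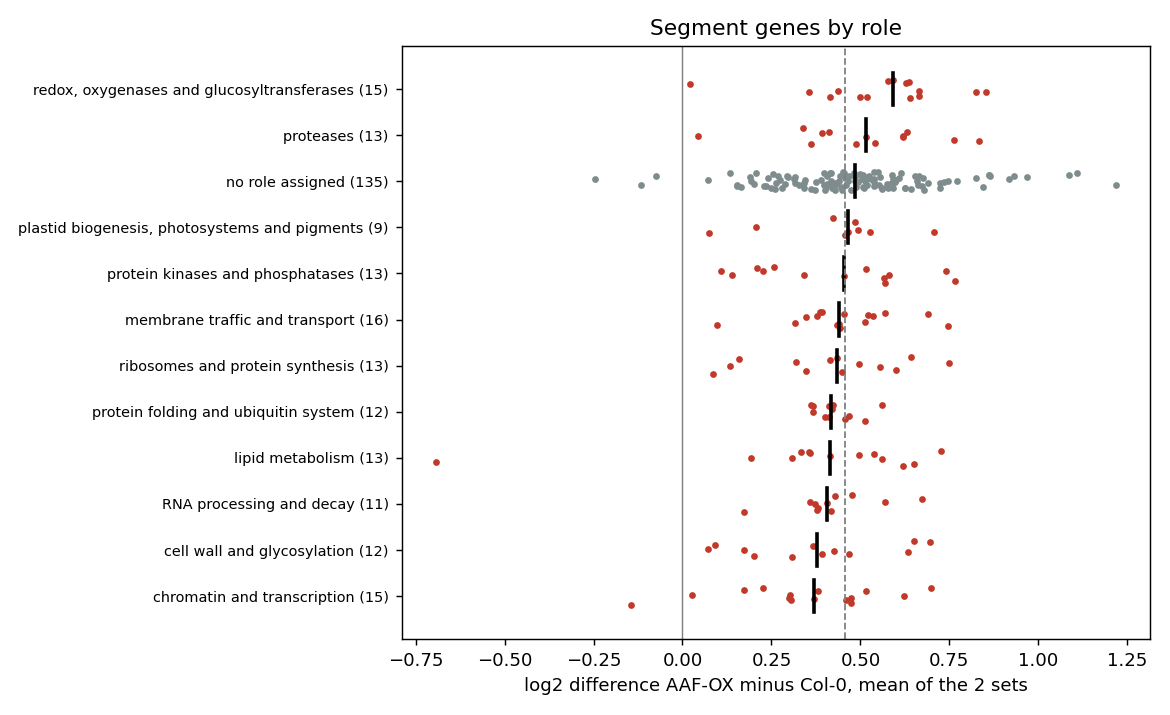
Log2 difference AAF-OX minus Col-0, as the mean of both sets, of each of the 277 genes by role, with the class median as a black bar and the number of genes in brackets. The dashed line is the median of all 277 genes, 0.46, and class medians run from 0.37 to 0.59 on either side of it.

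A few genes departed from the step by being lower in AAF-OX. Of the 277, 3 were lower in both sets (1.08%), against 32.0% of the other genes. The clearest was AT1G06100, of the fatty acid desaturase family, at 218.6 and 120.2 in set 1 and 243.3 and 126.9 in set 2. Col-0 averaged 230.9 ± 17.4 and AAF-OX 123.5 ± 4.78 (SD, n = 2 each), with differences of -0.66 and -0.73, so that the groups did not overlap. Its measured neighbours on both sides were higher in AAF-OX in both sets, AT1G06070 at 0.07 and 0.53 and GLX2-4, a glyoxalase gene, at 0.24 and 0.94. AT1G05540 had 212.7 and 143.5, then 151.1 and 144.3 (-0.44 and -0.05), and its groups were separate by a small margin. AT1G03440, of a leucine-rich repeat family, had 244.5 and 202.4, then 302.9 and 300.4 (-0.22 and -0.01), with overlapping groups. These 3 genes were all in the lowest of the 3 groups by signal.

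Another group stayed level. In 6 genes (2.17%) the difference lay within 0.15 of 0 in both sets, a limit chosen after the values were seen, and 28.5% of the other genes met it. Among them the extracellular aspartyl protease gene AT1G09750 was bright and even, at 6619 and 6882 in set 1 and 10180 and 10397 in set 2 (0.06 and 0.03). The pectin lyase-like gene AT1G10640 had 432.1 and 432.4, then 395.0 and 440.9. The rest were HTB1, PSB27, AT1G05170 and AT1G09575, the last of the mitochondrial calcium uniporter family. The 6 genes with a mean of at least 5000 had medians of 0.19 and 0.31, all above 0 in both sets, and AT1G09310, the brightest of the stretch, had 16160 and 16222, then 15728 and 18878 (0.01 and 0.26). SRC2, also above 5000, carried the full step, and AT1G01490, with a mean of 4049, exceeded it at 0.61 and 1.04. Whether bright probe sets approach saturation on these arrays was not tested. Also picked after seeing its values, the CCT-motif gene AT1G07050 turned between sets, from 782.8 to 1037 in set 1 and from 818.5 to 494.2 in set 2.

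At the other side, 10 genes exceeded the step most, ranked by the smaller of their 2 differences. AT1G10410 went from 309.4 to 611.7 and from 269.6 to 731.8 (0.88 and 1.29), or 289.5 ± 28.1 on average in Col-0 against 671.7 ± 84.9 for AAF-OX (SD, n = 2 each). AT1G05340, a small cysteine-rich transmembrane protein, went from 311.9 to 650.5 and from 81.3 to 318.0 (0.95 and 1.49). AT1G10340, an ankyrin repeat protein, went from 603.2 to 1154 and from 127.4 to 397.8 (0.88 and 1.34). The groups of AT1G10410 were wide apart, those of AT1G05340 were just separate, with 311.9 the highest Col-0 and 318.0 the lowest AAF-OX value, and those of AT1G10340 overlapped. AT1G07040 was higher by 1.02 and 0.82, from 757.6 to 1585 and from 573.7 to 1049. MCCA, a subunit of the methylcrotonyl-CoA carboxylase that degrades leucine, went from 705.5 to 1291 and from 533.9 to 1042 (0.83 and 0.90), with separate groups. AT1G10140 went from 346.8 to 651.3 and from 322.6 to 630.2 (0.82 and 0.87), the most even of the 10 between sets. The others were AT1G03610 (differences of 0.75 and 0.97), AT1G01640, a BTB/POZ-domain gene (signals of 168.4 and 310.8, then 60.8 and 171.6), AT1G01725 (differences of 0.70 and 1.23) and AT1G03020 (0.70 and 1.01). No gene of the stretch was at least 2-fold higher in both sets on the log2(signal + 50) scale, against 0.116% of the other genes. Without the added 50, the ratio was at least 2 in both sets for 2 genes, AT1G05340 (2.09 and 3.91) and AT1G03020 (2.17 and 2.33). AT1G03020 and AT1G01640 had Col-0 means under 150 and reached the signal minimum only through AAF-OX. Nothing is read from their place among the 10 or from their ratios.

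**Figure D4:**
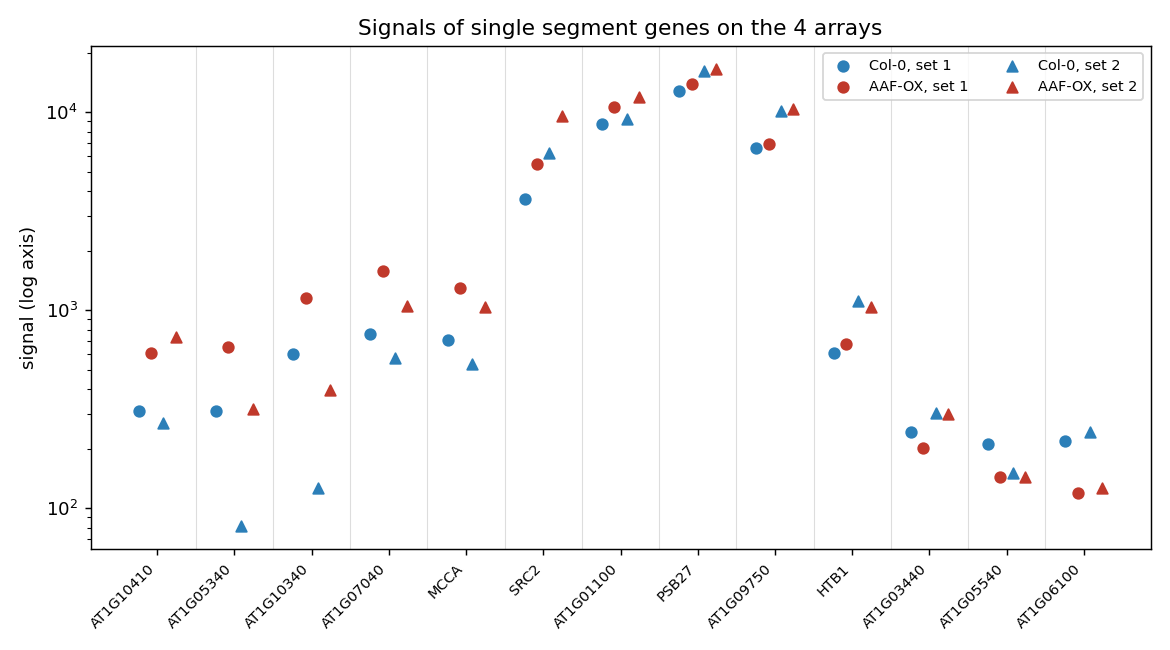
Signal on a log axis of 13 genes of the stretch on each array, Col-0 in blue and AAF-OX in red, set 1 as circles and set 2 as triangles. From AT1G10410 to AT1G01100 red lies above blue within each set, from PSB27 to HTB1 the colours lie close together, and in AT1G06100 both red points, at 120.2 and 126.9, lie below both blue ones.

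The comparison of set 2 with set 1 was not used to set the ends of the stretch, and it was tested in limma with a genotype term. The signal minimum was a mean over both sets, however, so that 18 genes passed it while 1 of their sets averaged under 150. Of these, 3 were called higher in set 2 with set 1 under the minimum, and 5 were called lower with set 2 under it. Of the 277 genes, 47 rose (17.0%) and 55 fell (19.9%) in set 2 at an adjusted p under 0.05, where 17.3% and 22.0% of all probe sets did. Together these were 102 genes, against 39.4% of all probe sets. In that fit the stretch as a group stood near the background. With no genotype term, 19 rose (6.86%) and 13 fell (4.69%), against 12.8% and 16.6% of all probe sets. That fit leaves the genotype step, for which the stretch was chosen, in the error, so nothing is read from these lower shares. The median difference between sets of the stretch was -0.04. The largest increase was in AT1G05575, from 165.8 (Col-0) and 278.1 (AAF-OX) to 1014 and 2497 (log2 2.63 ± 0.16, SE; limma's adjusted p = 2.68e-07). AT1G11210 followed, from 118.2 and 185.5 to 679.5 and 696.4 (1.89 ± 0.16; limma's adjusted p = 3.58e-06). The protein kinase gene AT1G11050 rose by 1.37, the plastid lipase gene AT1G02660 by 1.24, the GDSL lipase gene AT1G09390 by 1.18 and AT1G06830 by 1.16. The RING finger gene AT1G08050 fell from 320.7 and 307.5 to 11.5 and 88.6 (-1.98 ± 0.26; limma's adjusted p = 0.000112). It reached the signal minimum only through set 1, and its set 2 signals were dim, so the size of its decrease is uncertain. AT1G10340 fell by 1.65 on the log2 scale (limma's adjusted p = 6.93e-06), AT1G05340 by a log2 difference of -1.20, AT1G05840 by -1.18 and AT1G03210 by -1.06. The glycosyltransferase gene AT1G08280 fell from 298.4 and 283.4 to 97.3 and 145.8, and it too reached the signal minimum only through set 1.

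The genotype step was present whichever way a gene moved between sets. The 47 genes that rose in set 2 had median genotype differences of 0.35 and 0.57, the 55 that fell had 0.48 and 0.65, and the 175 that were not called had 0.38 and 0.53. In AT1G05575 the AAF-OX array was the higher in both sets (0.60 and 1.26) although its level differed by 2.63 between sets. In AT1G11210 the difference was 0.49 in set 1 and 0.03 in set 2. Of the 14 called genes that were at least 2-fold apart between sets, 12 were higher in AAF-OX in both sets. The exceptions, AT1G08050 (-0.05 and 1.17) and AT1G08280 (-0.06 and 0.41), were both dim in set 2.

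**Figure D5:**
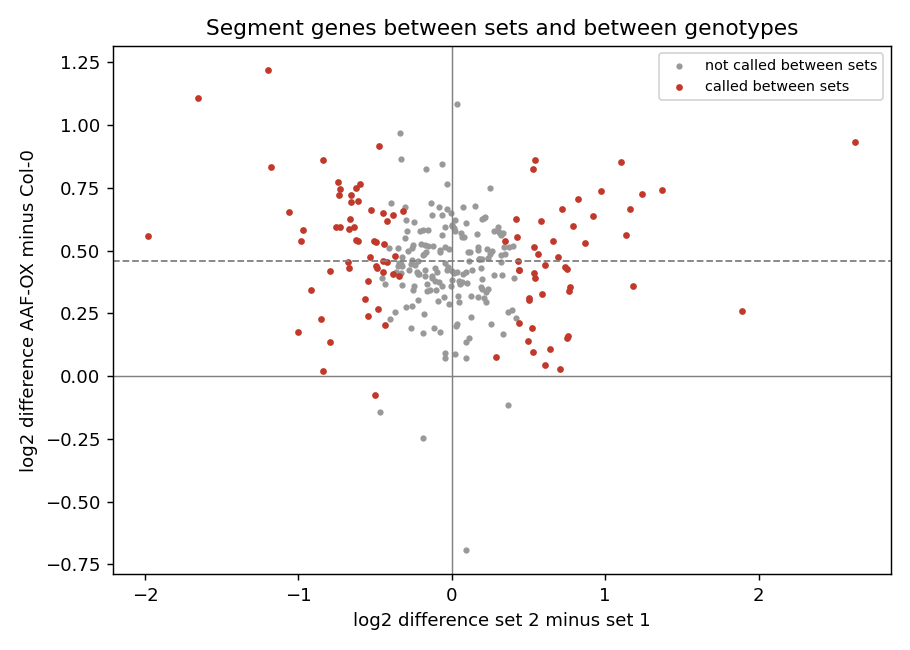
Log2 difference set 2 minus set 1 (horizontal) against log2 difference AAF-OX minus Col-0 (vertical) of the 277 genes, in red where limma called the difference between sets. The red points spread to both sides, from -1.98 to 2.63, and most lie around the dashed median genotype difference of 0.46.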

How the data were processed

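Leaf RNA was labelled with biotin and hybridised to 1 array per sample by the authors, per the labels' protocols. The deposited values are linear intensity values of 22810 probe sets in 1 table, and the submitters' processing notes name MAS5 without its version. The 64 control probe sets were left out. Detection calls and scanner files were not used here. The number of arrays, 2 per group, limits the precision.

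The platform annotation gave 1 gene for 13513 probe sets, which were named by it. Genes were assigned to the stretch by the locus tags of the TAIR10.1 gene table and ordered by its start positions. Signals were taken as log2(signal + 50). Groups and sets came from the sample titles. Models were fitted in R 4.3.3 by limma, version 3.58.1 (trend on intensity, two-sided tests, Benjamini-Hochberg threshold 0.05) over 13592 probe sets whose mean reached 100. The genotype fit held no other term and left 2 residual degrees of freedom, while the set fit added genotype and left 1. Pairing by number rests on the series' statement of independent sets and on how arrays of 1 number deviated together from their groups' averages (correlation 0.856). No source states that the sets came from separate plants. The p-values therefore reflect array-to-array spread, possibly technical. The fits were tested on simulated data.

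The stretch, the gene lists and the roles were chosen with earlier results of these data known. Roles were assigned from background knowledge after the 277 genes had been listed. Named genes were the 10 highest by the smaller difference of the 2 sets, all genes lower in both sets, the 3 brightest of each list, the 6 largest called set differences in each direction, the genes at each limit, and the listed pairs, which took the place of pairs by protein identity because no protein sequences were used. Genes given as class examples beside these were chosen after their values were seen. Alternatives covered pseudocounts, filters, scaling, the trend, probe sets, the block and each array left out. Sequences were not used here.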

Additional observations from a re-analysis of the deposited data

Results flagged for a closer look

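The genotype difference pointed opposite ways in the 2 sets for several genes, with 1 array per genotype in each set, so that the difference between sets was not tested. AT1G07050 had 0.38 in set 1 and -0.67 in set 2, and AT1G06640 had -0.49 and 0.54. TRM82 (AT1G03110) had -0.22 and 0.54, AT1G07840 0.44 and -0.17, and AT1G02180 -0.25 and 0.10. HTB1 (AT1G07790) had 0.14 and -0.090, close to level in both. AT1G08050 had -0.052 and 1.17, AT1G08280 -0.063 and 0.41, and AT1G10610 -0.064 and 0.98, where the set 1 values were near 0. AT1G01420, under the signal minimum, had -0.21 and 0.43. Outside the stretch, ACLA-2 (AT1G60810) had 0.13 and -0.087, PGY1 (AT2G27530) 0.087 and -0.19, and AT4G00810 -0.0060 and 0.14. In all, 23 of the 277 genes of the stretch differed in direction between sets, against 2775 of the 6030 other genes.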

How the results depend on the processing

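The median genotype difference of the stretch, 0.46, stayed between 0.42 and 0.49 under other pseudocounts, filters, scalings, probe set choices and the replicate block (0.46), and between 0.37 and 0.51 with 1 array left out. The count of genes higher in both sets was 251 to 253 except where fewer genes were kept, at 222 of 237 with a mean of at least 250 and 146 of 151 with at least 500. Genes lower in both sets numbered 3, with 1 and 0 at these 2 minima. Judged in the 1 complete set that is left when an array is dropped, 8 to 21 genes were lower, and 256 to 269 higher. Genotype calls were 0 under all settings without the block, each array left out included. With the replicate block they were 60, and 34 with median centring as well. Combined after seeing the data with other settings, the block gave 15 with a pseudocount of 1, 73 with a pseudocount of 100, 64 with a mean of at least 250, 73 with quantile normalization, and 0 without the filter or without the intensity trend. The cause was not tested. Set calls (47 higher, 55 lower) became 19 and 13 with no genotype term, where 12.8% and 16.6% of all probe sets were called. The genotype step is then part of the error. With that term dropped and 1 array left out, they ran from 7 to 51 higher and from 4 to 66 lower, namely 7 and 19 when the first Col-0 array was dropped, 51 and 7 when the second was, and 21 and 4, then 10 and 66, for the AAF-OX arrays in the same order. A lone array was assumed to vary like the others, and the genotype step then mixes into the set difference. For 45 genes named by rule, each value was compared with the value given, within 1 SD of the gene's own 2 set differences. This SD is wide where the 2 sets differ, so a value within it need not be stable. Under settings other than leaving out an array, 294 of 309 values stayed within 1 SD. Some did so by construction, since filters and the block do not alter a gene's own difference. With an array left out, 56 of 180 values stayed within 1 SD, and the sign turned in 21. Low signal limits dim genes: 30.1% to 31.4% of values per array lay under 50.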
